A study of Saccharomyces cerevisiae with 16 samples.

Results

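The chromosome-end ORFs of Saccharomyces cerevisiae within 25 kb were taken as the nuclear ORFs whose midpoint lies less than 25 kb from position 1 of a chromosome, or from the largest gene end on that chromosome, and whose level averaged at least 1 FPKM (fragments per kilobase of ORF, scaled to library depth) over the 16 libraries of the study. They were thus chosen by position and by the mean FPKM of both genotypes together. ORFs with symbols starting in DAN, TIR, HXT or PHO were left out. The deposited tables list 7126 genes, of which 6685 are nuclear ORFs and 413 of these lie within 25 kb of an end. Of the 413, 10 were left out by symbol and 128 did not reach 1 FPKM, which leaves 275 members among 5881 tested ORFs. The 1 FPKM minimum was met by 249 members on their wild-type libraries alone. The other 26 were under 1 FPKM in wild-type libraries and entered through the hda1Δ libraries, so that their direction was set by the rule. Among the 249, 1 member, PGU1, was under 1 FPKM in hda1Δ libraries and entered through wild type, so its direction was set as well.

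RNA was sequenced from hda1Δ cells (strain YTK113, given in the labels as hda1-/-) and wild-type cells (YSB787). Both strains grew in synthetic complete medium, first with raffinose, then with galactose for 15, 30 and 120 min, then with glucose for 30 and 120 min, and then with galactose again for 15 and 30 min, called the second pulse here. There is 1 library per genotype and stage, 8 per genotype and 16 in all, and the stages are successive samples of a culture, so no spread between replicates can be given and no test was run. Whether the deletion strain is a single clone is not given in the sources used here.

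The last stretch of a yeast chromosome differs from the interior. It ends in short telomeric repeats, inside which lie the X element and, at many ends, copies of the Y′ element, which codes for a helicase. Next to these lie families of genes that cells use under particular conditions, such as growth on maltose, sorbitol or formate, cell wall remodelling without oxygen, or vitamin shortage, and many of these genes have near-identical copies at several ends. Silencing by the Sir proteins acts close to the telomere, whereas Hda1, the catalytic subunit of a histone deacetylase complex that the Tup1 corepressor can recruit, is known to keep histones deacetylated over broader stretches further in.

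Which copy a sequencing read came from is the first limit on these genes, and the promoters of enolase-related genes show it. ERR1 (chromosome XV) and ERR2 (chromosome XVI) are identical over all 1314 bases of the ORF and all 300 bases from 250 before to 50 after the start codon's first base, while ERR3 (chromosome XIII) differs from ERR1 at 12 ORF bases and 4 bases of this window. The windows, from the RefSeq R64 genome, are ERR1 at chrXV:1080026-1080325, plus strand, and ERR3 at chrXIII:919838-920137, plus strand, with the differing bases in capitals.
ERR1: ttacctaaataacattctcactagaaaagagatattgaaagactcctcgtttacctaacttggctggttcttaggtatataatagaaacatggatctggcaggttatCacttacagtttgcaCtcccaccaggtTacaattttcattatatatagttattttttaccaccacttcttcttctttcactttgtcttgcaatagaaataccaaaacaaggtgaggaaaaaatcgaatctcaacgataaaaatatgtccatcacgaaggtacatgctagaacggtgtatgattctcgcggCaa
ERR3: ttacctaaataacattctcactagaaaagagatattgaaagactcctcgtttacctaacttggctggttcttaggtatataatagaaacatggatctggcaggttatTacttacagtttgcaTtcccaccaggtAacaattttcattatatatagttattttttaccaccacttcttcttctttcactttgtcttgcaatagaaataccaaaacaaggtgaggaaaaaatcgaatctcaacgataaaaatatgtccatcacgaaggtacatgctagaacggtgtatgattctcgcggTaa
The same holds for IMA3 and IMA4, and PAU21 and PAU22, identical in ORF and window. SOR1 and SOR2 share the whole window and differ at 1 ORF base. The ORFs of DSF1 and YNR073C are 98.9% identical.

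Among the members without copies, the windows of 3 ORFs described below are shown here, because reads from them can be placed at a single site: DAK2 at chrVI:23173-23472 and YJL218W at chrX:21723-22022, both plus strand, and YCR102C at chrIII:305418-305717, minus strand. Capitals mark the start codon and, in DAK2, a stress response element on the minus strand.
DAK2: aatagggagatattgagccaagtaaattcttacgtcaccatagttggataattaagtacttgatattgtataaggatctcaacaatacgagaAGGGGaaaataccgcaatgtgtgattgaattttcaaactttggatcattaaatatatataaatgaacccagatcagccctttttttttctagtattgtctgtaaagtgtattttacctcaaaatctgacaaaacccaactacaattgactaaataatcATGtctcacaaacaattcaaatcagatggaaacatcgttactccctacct
YJL218W: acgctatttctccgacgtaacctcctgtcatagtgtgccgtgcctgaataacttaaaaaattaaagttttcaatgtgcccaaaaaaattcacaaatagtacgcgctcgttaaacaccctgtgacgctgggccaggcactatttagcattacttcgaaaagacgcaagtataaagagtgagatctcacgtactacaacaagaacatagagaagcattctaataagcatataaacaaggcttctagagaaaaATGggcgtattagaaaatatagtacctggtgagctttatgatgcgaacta
YCR102C: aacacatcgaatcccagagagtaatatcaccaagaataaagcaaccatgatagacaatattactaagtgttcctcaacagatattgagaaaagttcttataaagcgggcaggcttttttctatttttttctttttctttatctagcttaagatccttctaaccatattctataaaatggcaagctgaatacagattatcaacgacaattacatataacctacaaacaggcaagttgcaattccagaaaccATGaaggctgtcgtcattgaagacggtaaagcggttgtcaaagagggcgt
In the windows of the 47 members that stayed higher in hda1Δ (defined below), a stress response element (CCCCT, either strand) was found in 11, or 23.4%, against 20.2% of the other 228 members and 21.6% of all tested ORFs. The Mig1 core (CCCCNC, N any base) was found in 10.6%, 17.5% and 13.01% of these sets, the Aft1 core (CACCC) in 10.6%, 19.7% and 20.03%, and the Ume6 site (TAGCCGCC) in 0 of the 275 member windows and 1.00% of all windows. The Mig1 core can overlap the other short motifs.

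Repeated sequence was measured as the share of read-length windows of an ORF found at 2 or more sites of the genome, on either strand. Of the 275 members, 109 had more than 10% repeated sequence, against 161 of the 5606 other tested ORFs. Of the 109, 35 were repeated over their whole length, whereas 152 of all members had no repeated window. The 109 fell into 38 groups of ORFs linked by shared windows. The largest group held 33 ORFs of the Y′ region, the next 8 PAU genes and 7 COS genes, and 14 groups had a single member whose copies lie elsewhere. Aligned bases per gene and library were whole numbers, within 0.05 bases, for 26.3% of the values of repeated members, against 85.8% of the values of unrepeated members and 80.4% of those of other ORFs. Fractional sums arise when a read is shared out among several sites, and the handling of such reads is not given in the sources used here. The levels of single copies in such a group are therefore not independent of each other.

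The HDA1 gene itself was at 0 to 0.162 FPKM in the 8 hda1Δ libraries, with 8 fragments in total, and at 27.02 to 38.8 FPKM in the 8 wild-type libraries, with 6488 fragments, as the labels give it. Each library held 1.89 to 2.80 Gb of aligned bases. RNA genes took 8.88 to 15.7% of the bases aligned to annotated genes, and the hda1Δ libraries of galactose 120 min (15.7%) and of the second pulse at 15 min (14.7%) were the highest of all 16. The part of this share in the results was not tested, but counts are also given without these stages.

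Chromosome-end ORFs were more often higher in hda1Δ than other ORFs at each of the 8 stages. An ORF was called higher where its ratio of FPKM + 1, hda1Δ over wild type, was at least 1.7, and lower at 0.588 or less. In raffinose, 61 members were higher and 3 lower, where 4.9% of all tested ORFs were higher and 1.11% lower. After 15 min of galactose 86 were higher (all tested ORFs, 7.84%) and 2 lower (1.7%), and after 30 min 85 were higher (9.35%) and 2 lower (2.41%). At 120 min of galactose 75 were higher (8.06%) and 9 lower (9.79%). In glucose, 66 were higher (5.95%) and 2 lower (1.39%) at 30 min, and 65 higher (5.02%) and 0 lower (1.26%) at 120 min. In the second pulse, 53 were higher (3.52%) and 4 lower (5.92%) at 15 min, and 48 higher (3.32%) and 6 lower (4.69%) at 30 min. Without the 26 members that entered through hda1Δ, 45 of 249 were higher in raffinose, where 4.55% of all tested ORFs of at least 1 FPKM in wild type were. The first galactose pulse then had 70 (7.56%), 70 (9.04%) and 58 (7.68%) higher, the glucose stages 50 (5.55%) and 54 (4.74%), and the second pulse 39 (3.18%) and 36 (2.94%), a mean share of 21.2%. Of the 166 unrepeated members alone, 26 were higher in raffinose, where 4.28% of all unrepeated tested ORFs were. The first galactose pulse had 47 (7.38%), 40 (8.66%) and 37 (7.49%) of them higher at its 3 stages, the glucose stages 30 (5.42%) and 29 (4.33%), and the second pulse 15 (2.87%) and 11 (2.55%). Averaged over stages, 24.5% of all members, 17.7% of the 166 unrepeated members and 34.9% of the 109 repeated members were higher.

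**Figure D1:**
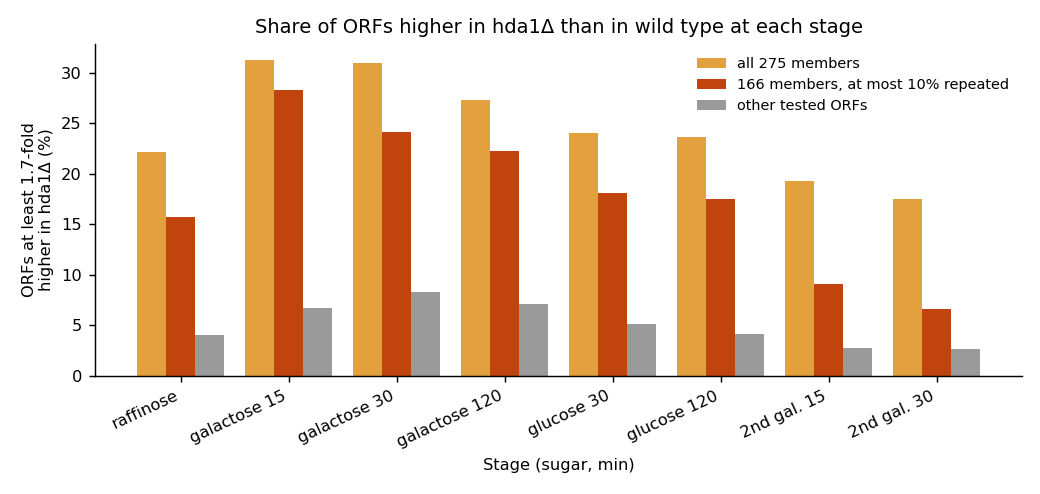
Percent of ORFs at least 1.7-fold higher in hda1Δ than in wild type (y axis) at each of the 8 stages (x axis), for all 275 members, the 166 members with at most 10% repeated sequence and the other tested ORFs; each bar rests on 1 library per genotype. The bars of both member sets stand above those of the other ORFs at every stage, and the unrepeated members run from 28.3% at 15 min of galactose to 6.63% at 30 min of the second pulse.

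The members had a median log2 ratio of 0.23 before galactose, 0.41, 0.42 and 0.25 during the first galactose pulse, 0.25 and 0.19 on glucose, and 0.07 and 0.06 at the last stages, those of the second pulse. Over all tested ORFs the medians were 0.01, 0.09, 0.09, −0.14, 0.08, −0.03, −0.16 and −0.16 at the same stages. With the median of all tested ORFs subtracted, 31.3% of the members were higher at 120 min of galactose (all tested ORFs, 10.3%), and 22.9% (4.64%) and 20.4% (4.54%) in the second pulse. The unrepeated members alone had medians of −0.02 in both second-pulse stages before this subtraction. Members were also expressed at lower levels than other ORFs, with a median of 9.58 FPKM against 33.2 FPKM, and the part of the level in the shares above was not tested. By class of mean level, the share of ORFs higher, averaged over stages, was 33.7% of members against 13.4% of other ORFs at 1 to 5 FPKM, 26.2% against 5.99% at 5 to 20 FPKM, 15.7% against 3.40% at 20 to 100 FPKM and 12.5% against 5.16% above that. Without ORFs under 1 FPKM in wild type, the lowest class had 22.6% of members against 12.3% of other ORFs.

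Of the 275 members, 47 (17.1%) were higher in hda1Δ at 6 or more of the 8 stages, which holds for 2.48% of all tested ORFs, and 29 were higher at all 8 (0.969%). Of the 29, 5 have no repeated sequence above the limit, where 0.57% of unrepeated tested ORFs were higher at all 8. The 47 are called lasting members below. No member was lower at 6 or more stages, as were 0.068% of all tested ORFs. At 1 or more stages 124 members were higher (16.7%) and 21 lower (19%), with 6 members in both counts, and 136 were called at no stage. Of the 47 lasting members, 33 have repeated sequence and 14 do not. The 14 are 8.43% of the 166 unrepeated members, where the share among all unrepeated tested ORFs was 1.98%. Counted by sequence, with each repeat group taken as a single entry, 32 of 204 entries held a lasting member. An entry counts here if any 1 of its members is lasting, and the same count over all tested ORFs is not given. The 32 include 18 repeat groups, of which 16 were higher at 6 or more stages with all copies summed. They also include entries that passed the level minimum through hda1Δ. Of the 47, 12 were under 1 FPKM in wild type and entered through hda1Δ: DAK2, PAU3, PAU4, PAU21, PAU22, YAR066W, YCR102W-A, YFR054C, YHR213W, YJR157W, YOL160W and YOR392W. Without such members 35 of 249 were lasting, where 2.23% of all tested ORFs of at least 1 FPKM in wild type were, and 10 of the 35 were unrepeated. Requiring also that the 95% counting interval lie off equal levels left 42, and leaving out the stages with the 2 highest RNA-gene shares left 44 at 5 or more of 6 stages, 42 of them among the 47. With 5 FPKM added in place of 1, 20 of the 47 remained.

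Summing the copies of a group takes away the question of which copy a read belongs to. Of the 38 repeat groups, 18 had a lasting member, and 13 of these held 2 or more members. In all 13 the summed level of the members was higher at 6 or more stages, with and without copies outside the 275 members in the sum. PAU21 and PAU22 form a group, and both entered through hda1Δ, so the direction of their sum was set by the rule. PAU4, PAU10, PAU11 and PAU13 in the group of 8 PAU genes, and YAR066W in its group with YHR214W, also entered this way. The rule thus set the direction of these sums in part. The other 5 groups held 1 member each, and for YJR157W and YOR392W no other gene was listed with the shared windows, so that a sum adds nothing. Of the 3 with copies among other genes, PAU3, which entered through hda1Δ, was higher at 8 stages when summed with PAU19. The other 2 were FLO1, a flocculin gene, whose sum with FLO5 and FLO9 averaged 17.6 FPKM in hda1Δ and 12.8 FPKM in wild type and was higher at 1 stage, and YHR213W, whose sum with FLO5 and YAR062W averaged 12.1 FPKM in hda1Δ and 8.36 FPKM in wild type and was higher at 0 stages.

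**Figure D2:**
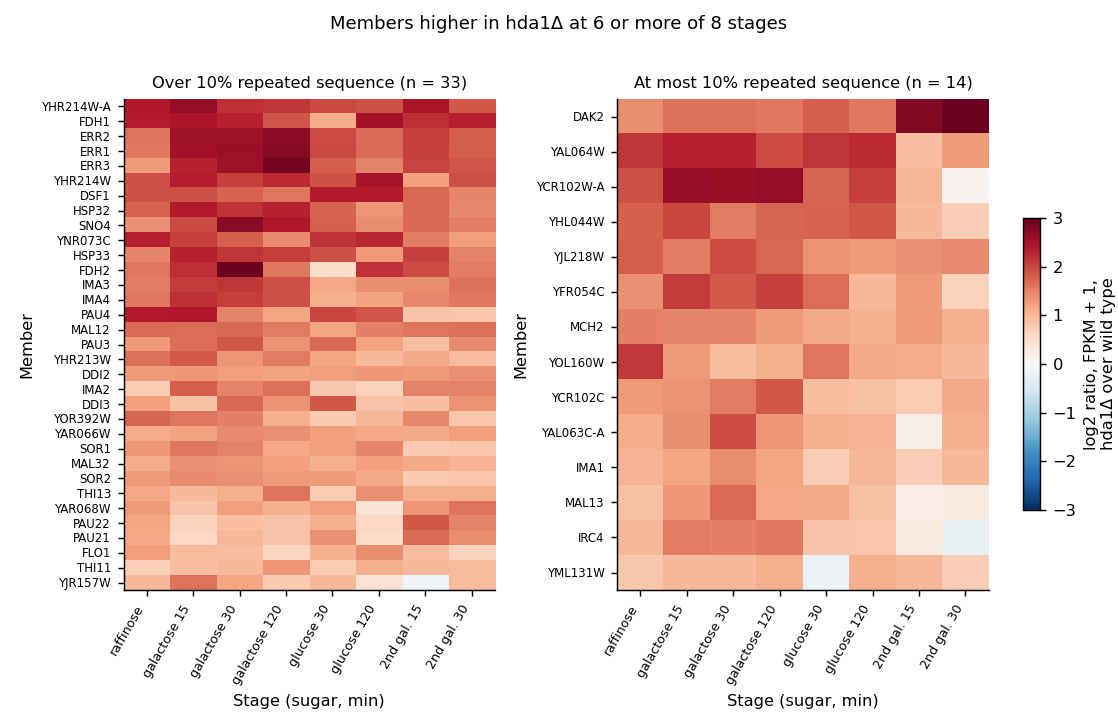
Log2 ratio of FPKM + 1, hda1Δ over wild type (colour), of the 47 lasting members (rows) at the 8 stages (columns), split into the 33 with more than 10% and the 14 with at most 10% repeated sequence. Of the 47, 29 are at least 1.7-fold higher in all 8 columns, 5 of them unrepeated.

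The differences were not strongest at the very end of the chromosome. In the outermost 5 kb, 8.06% of ORFs were higher in hda1Δ on average over stages, and the share was 37.2% at 5 to 10 kb, 30.8% at 10 to 15 kb, 23.3% at 15 to 20 kb and 22.2% at 20 to 25 kb. Further in it was 7.79% at 25 to 50 kb, 3.81% at 50 to 100 kb and 4.92% beyond. Lasting members made up 1 of 45 ORFs in the outermost bin and 14 of 48, 14 of 56, 8 of 58 and 10 of 68 in the next bins. Of the 45 outermost ORFs, 36 are repeated and 27 touch an annotated telomere region, so their values are not independent of each other. Further in, 12 of 358 ORFs at 25 to 50 kb, 2 of 794 at 50 to 100 kb and 79 of 4419 beyond were higher at 6 or more stages. Among unrepeated ORFs the counts were 0 of 9, 2 of 21, 6 of 28, 1 of 47 and 5 of 61 within 25 kb, and 11 of 349 at 25 to 50 kb, so that 12 of the 14 lasting members at 5 to 10 kb are repeated. For unrepeated ORFs of that bin the mean share higher was 24.4%. Without ORFs under 1 FPKM in wild type, a choice made after seeing the data, the mean shares in the 5 bins were 8.75%, 31.3%, 22.9%, 22.8% and 20%. Of the 35 members that touch an annotated telomere region, 33 of them repeated, 0 were lasting and 5 were higher at any stage, and their median mean log2 ratio was 0.14. The 240 members outside these regions had a median of 0.23 and held all 47 lasting members.

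**Figure D3:**
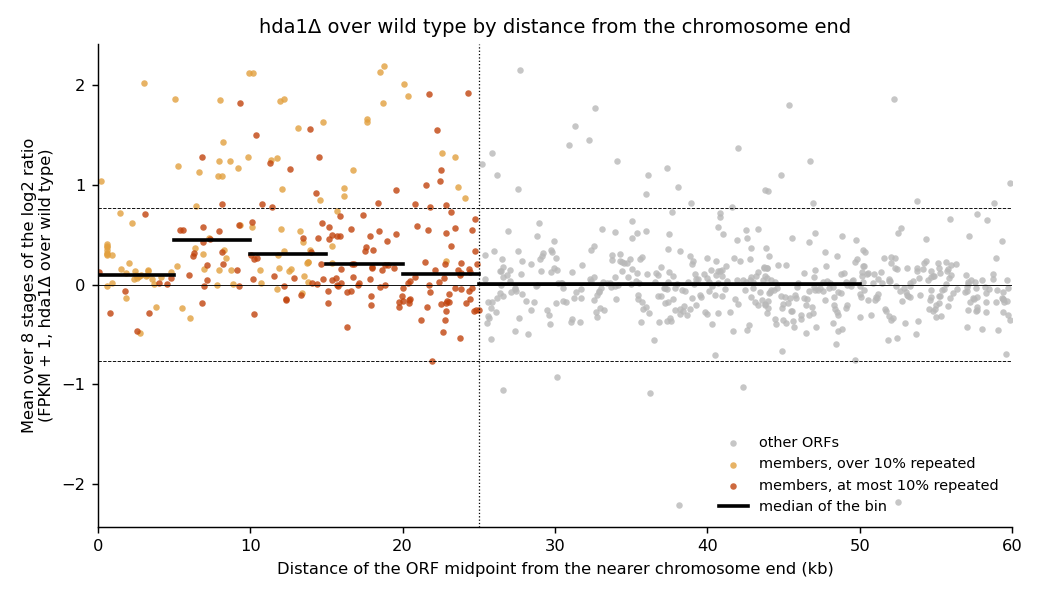
Mean over 8 stages of the log2 ratio of FPKM + 1, hda1Δ over wild type (y axis), against the distance of each ORF's midpoint from the nearer chromosome end in kb (x axis), for repeated members, unrepeated members and other tested ORFs up to 60 kb; black bars are bin medians, dashed lines mark 1.7-fold and the dotted line 25 kb. The bin median is 0.10 in the outermost 5 kb, 0.44 at 5 to 10 kb and 0.01 at 25 to 50 kb.

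The line at 25 kb does not separate ORFs that differ from ORFs that do not. Just inside it lie YER181C (24.89 kb, mean log2 ratio 0.21) and ELP6 (24.99 kb, −0.25), a subunit of the Elongator complex. Just outside lie IMA5 (25.2 kb, 1.21, higher at 7 stages), an isomaltase gene, and AQY1 (25.4 kb, 0.05), a water channel gene. At the level minimum, YJR157W (1.03 FPKM, mean log2 ratio 0.85) and YAL065C (1.05 FPKM, −0.04) were just inside, and PDR18 (0.996 FPKM, 0.23) and IMD1 (0.998 FPKM, listed at 0 in all hda1Δ libraries) just outside.

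Lasting members were found at 24 of the 32 chromosome ends, with 3 to 15 members per end. Their share was 17.4% of 149 members at the 17 ends that carry a Y′ element and 16.7% of 126 members at the 15 ends without it. The 149 include the 33 ORFs of the Y′ repeat group, of which 0 were lasting, so the 2 shares do not compare like sets of genes. At 7 ends there were 3 or more. Neighbouring lasting members formed 11 runs that held 28 of the 47. Neighbours were taken among the members alone, so genes left out by symbol or by level can lie between them. The longest, on the right end of chromosome XV from 7.90 to 12.0 kb, was PAU21, ERR1, YOR392W and HSP33, of which PAU21 and YOR392W are among the 12 that entered through hda1Δ. PAU22, ERR2 and HSP32 stand in the same order on the left end of chromosome XVI, and ERR3 and SNO4 on the right end of chromosome XIII, so these runs share sequence and are not separate cases. The same holds for YAR068W and YAR066W (chromosome I, right), which share sequence with YHR214W-A and YHR214W in a run on chromosome VIII, right. It also holds for SOR2 and THI13 (chromosome IV, left), which share sequence with SOR1 and THI11 in a run on chromosome X, right. Next to HSP33 and HSP32, away from the end, lie FEX1 and FEX2, fluoride exporter genes, which were called at no stage (mean log2 ratios 0.09 and 0.02), and FDH1 and FDH2, further in, were lasting again. Of the 11 runs, 2 held unrepeated ORFs alone, YAL064W with YAL063C-A on the left end of chromosome I and MAL13 with IMA1 on the right end of chromosome VII.

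**Figure D4:**
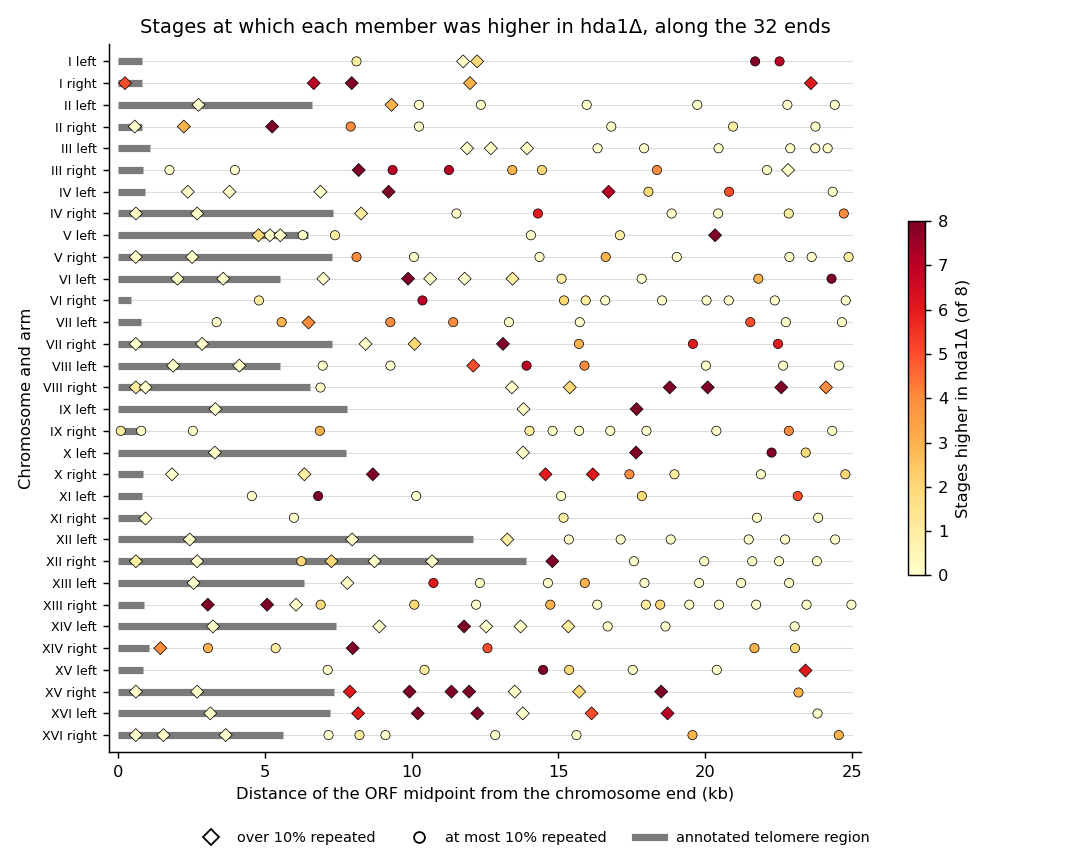
Each row is a chromosome end, with the members at their distance from the end in kb (x axis), coloured by the number of stages (0 to 8) at which they were higher in hda1Δ; diamonds are members with more than 10% repeated sequence, circles the others, and grey bars annotated telomere regions. The members higher at 6 or more stages lie inward of the grey bars, at 24 of the 32 ends.

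Genes for enolase-like enzymes and for the use of formate and sugar alcohols were lasting without exception. The ERR genes code for proteins related to enolase, a glycolytic enzyme, and all 3 were lasting. Their summed level was 17.1 to 162 FPKM (median 60.9) in the hda1Δ libraries and 3.59 to 43.5 FPKM (median 9.54) in the wild-type libraries, with a mean log2 ratio of 2.31. The ranges overlap between genotypes, and the sum was higher in hda1Δ at each of the 8 stages.

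FDH1 and FDH2 code for formate dehydrogenase, which oxidises formate to carbon dioxide. FDH1 was at 28.0 FPKM (lowest), 74.1 FPKM (median) and 275 FPKM (highest) in hda1Δ libraries and at 4.15, 14.6 and 54.0 FPKM in wild-type libraries. Its ratio ran from 2.16 (95% counting interval 1.93 to 2.40) at 30 min of glucose to 5.64 (4.47 to 7.18) at 120 min of glucose. FDH2, which is annotated as a shorter ORF, was higher at 7 stages. The 2 ORFs share windows and are 73.5 to 74.6% repeated, so their single levels are not independent. Their sum was 38.8 to 405 FPKM (median 100) in hda1Δ and 5.80 to 97.5 FPKM (median 20.9) in wild type. It was higher at all 8 stages, with a mean log2 ratio of 2.09. Intervals here and below are exact binomial ones and cover counting error alone.

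SOR1 and SOR2 code for sorbitol dehydrogenase, and their sum was 10.4 to 28.6 FPKM (median 22.8) in hda1Δ against 3.04 to 15.2 FPKM (median 7.30) in wild type. DSF1 and YNR073C, annotated as mannitol dehydrogenases, summed to 25.8 to 219.7 FPKM (median 103) in hda1Δ against 3.55 to 84.5 FPKM (median 26.7) in wild type. Both sums were higher at all 8 stages, by mean log2 ratios of 1.304 and 1.96.

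HSP32, HSP33 and SNO4 belong to the Hsp31 family of chaperone-like proteins. Their sum was 10.0 to 94.4 FPKM (median 35.9) in hda1Δ and 2.03 to 31.9 FPKM (median 5.09) in wild type, with a mean log2 ratio of 2.16. SNO4 was counted in the thiamine and pyridoxine list by its symbol, although it belongs to this family.

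In the maltose and isomaltase list, 7 of 12 members were lasting, 10 were higher at some stage and 0 were lower at any. MAL12 and MAL32 are the maltases, which split maltose into glucose, and their sum was 17.4 to 153 FPKM (median 109) in hda1Δ against 5.51 to 56.6 FPKM (median 37.3) in wild type. IMA2, IMA3 and IMA4, isomaltases, summed to 16.4 to 95.9 FPKM (median 39.3) against 6.55 to 29.6 FPKM (median 8.17). IMA1, the main isomaltase gene, has no such copies (0.24% repeated). It was at 9.29 to 53.0 FPKM (median 22.8) in hda1Δ and 4.76 to 29.5 FPKM (median 8.68) in wild type, and higher at 6 stages, with the other ratios at 1.68.

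The regulator gene MAL13 stands beside IMA1, and its levels were 13.7 to 34.3 FPKM (median 25.4) in hda1Δ and 6.95 to 23.2 FPKM (median 10.0) in wild type. It was higher at the 6 stages before the second pulse, up to 3.27-fold (2.81 to 3.81) at 30 min of galactose, and at 1.17-fold and 1.21-fold in the second pulse. MAL33, the regulator gene of the other maltose locus, was called at no stage (mean log2 ratio 0.26), nor was MPH2, a permease gene (0.31).

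The other unrepeated members with the highest ratios are mostly ORFs with little known function. By the naming rule (mean of at least 5 FPKM, ranked by mean log2 ratio), the 10 highest were YAL064W, YHL044W, YJL218W, YCR102C, YNR071C, IMA1, ZRT1, MAL13, IRC4 and YML131W, and 8 of these are lasting.

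YAL064W was at 6.43 to 11.1 FPKM (median 9.58) in hda1Δ and 0.833 to 4.20 FPKM (median 1.61) in wild type. The counts behind it were 258 fragments in hda1Δ and 48 in wild type. Each hda1Δ library was above each wild-type library, as for 17 members in all, 9 of them under 1 FPKM in wild type, and 0.714% of all tested ORFs. YHL044W, an ORF of the DUP240 membrane protein family, was at 26.6 to 61.2 FPKM (median 37.6) in hda1Δ and 7.17 to 36.3 FPKM (median 9.62) in wild type, where the 2 second-pulse libraries, at 27.5 and 36.3 FPKM, stood far above the rest. Its ratio was 2.96 to 4.03 up to the end of the glucose stages and 1.97 and 1.67 in the second pulse.

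YJL218W, annotated as an acetyltransferase, was at 12.7 to 51.6 FPKM (median 38.6) in hda1Δ and 4.41 to 18.8 FPKM (median 11.0) in wild type, with ratios between 2.41 (1.79 to 3.20) and 3.87 (3.06 to 4.90). YCR102C was at 12.0 to 32.9 FPKM (median 17.9) in hda1Δ against 4.37 to 9.79 FPKM (median 7.48) in wild type, without overlap. YCR102C was higher at 7 stages, with a ratio of 1.68 at 15 min of the second pulse.

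YNR071C, annotated in the aldose epimerase superfamily, was at 3.44 to 22.3 FPKM (median 11.1) in hda1Δ and 1.86 to 7.30 FPKM (median 3.92) in wild type. It was higher at the 5 galactose stages, with ratios of 2.33 to 3.39, and not in raffinose (1.48) or glucose (1.45 and 1.55). ZRT1, the high-affinity zinc transporter gene, was higher at 5 stages, most at 30 min of glucose, with 335 FPKM in hda1Δ and 92.4 FPKM in wild type (ratio 3.59, 3.38 to 3.81), and not at 30 min of the second pulse, with 32.7 FPKM in hda1Δ and 32.1 FPKM in wild type. YML131W was higher at 6 stages but not at 30 min of glucose, with 197 FPKM in hda1Δ and 224 FPKM in wild type.

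**Figure D5:**
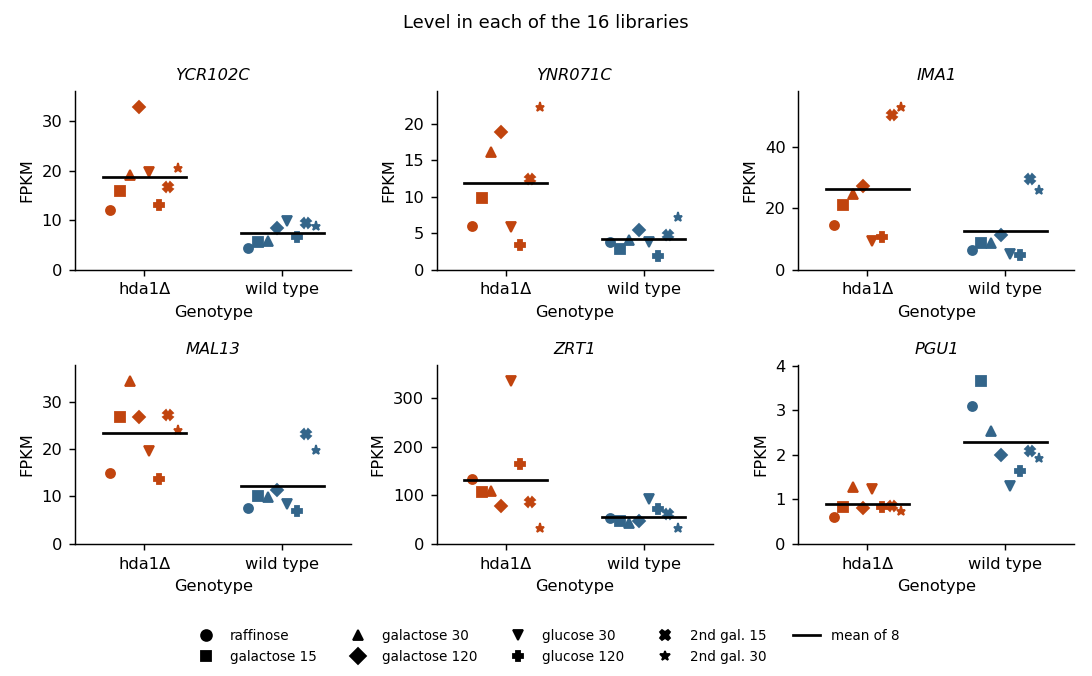
FPKM (y axis) of 6 unrepeated members in each of the 8 hda1Δ libraries (left) and 8 wild-type libraries (right); symbols are stages and the bar is the mean of the 8. YCR102C is above all wild-type values in every hda1Δ library, PGU1 is below all of them, and the other 4 overlap between genotypes. PGU1 met the level minimum through its wild-type libraries, so its direction was set by the rule.

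DAK2 fell short of the 5 FPKM of the naming rule and was chosen after its values were seen, for its mean log2 ratio (1.92). Its wild-type mean was under 1 FPKM, so that it entered through its hda1Δ libraries and its direction was set by the rule. It codes for dihydroxyacetone kinase. It was at 1.92 to 16.8 FPKM (median 2.54) in hda1Δ and 0.0998 to 1.26 FPKM (median 0.13) in wild type, with 925 and 61 fragments over the 8 libraries each. Its ratio was 2.64 to 3.46 at the first 6 stages and 6.87 (5.31 to 8.90) and 7.86 (5.93 to 10.2) in the second pulse. MCH2, related to monocarboxylate permeases, was the lasting member of the permease and efflux list (1 of 13, a list taken by symbol that also holds other genes), at 2.88 to 10.5 FPKM (median 4.62) in hda1Δ and 0.589 to 4.52 FPKM (median 1.12) in wild type.

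PAU genes, which code for small cell wall mannoproteins made in quantity without oxygen, were higher at some stage in 11 of 11 members, and 4 were lasting (PAU3, PAU4, PAU21 and PAU22). All 4 were under 1 FPKM in wild type and entered through hda1Δ, as did PAU10, PAU11 and PAU13, so that the direction of these 7 was set by the rule. All 11 have repeated sequence and low levels. The largest PAU group, of 8 members, summed to 26.7 to 59.2 FPKM (median 39.6) in hda1Δ and 13.7 to 31.99 FPKM (median 21.6) in wild type, and the sum was higher at 6 stages. A further 8 PAU genes within 25 kb did not reach 1 FPKM. The flocculin genes FLO1 and FLO10 were higher at 6 stages and 1 stage.

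The 4 copies of the thiamine precursor gene, THI5, THI11, THI12 and THI13, summed to 14.8 to 30.1 FPKM (median 18.5) in hda1Δ and 6.20 to 15.2 FPKM (median 8.70) in wild type, and were higher as a sum at 7 stages. The vitamin B6 genes SNO2 and SNO3 were called at no stage (mean log2 ratios 0.14 and 0.15). DDI2 and DDI3, cyanamide hydratase genes, summed to 9.04 to 19.1 FPKM (median 11.0) in hda1Δ against 2.58 to 6.22 FPKM (median 3.25) in wild type. Among the 96 members without a standard name 17 were lasting, near the share of all members (17.1%). YHR214W-A, which is 73.8% repeated and shares windows with YAR068W, had a mean log2 ratio of 2.19 (2.09 for the sum of both). It was at 16.4 to 24.4 FPKM (median 21.4) in hda1Δ and 2.28 to 6.02 FPKM (median 3.52) in wild type.

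Several families at the same ends had no lasting member. The 8 YRF1 genes, the Y′ helicases, were called at no stage, with mean log2 ratios of 0.09 to 0.14, and the 33 ORFs of the Y′ repeat group summed to a mean of 195 FPKM in hda1Δ and 179 FPKM in wild type. Of the 11 COS genes, which code for endosomal membrane proteins, 0 were lasting. COS10 (3.06 kb from its end) was higher at 3 stages, with 8.03 to 28.1 FPKM (median 14.1) in hda1Δ and 6.31 to 13.7 FPKM (median 7.94) in wild type, and COS12 was lower at 1. The 7 repeated COS genes summed to a mean of 381 FPKM in hda1Δ and 362 FPKM in wild type. The arsenite resistance genes ARR1, ARR2 and ARR3 were not lasting either (mean log2 ratios 0.14 to 0.21, ARR2 higher at 1 stage). Of the 5 aryl-alcohol dehydrogenase (AAD) genes 0 were lasting and 3 were higher at some stage, AAD10 at 4, AAD4 at 2 and AAD6 at 1, all 3 of them at 120 min of galactose (2.07-fold, 1.79-fold and 1.73-fold).

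The iron uptake list had 0 lasting members of 5. FET4, the low-affinity iron transporter gene, was higher at both glucose stages (2.264-fold and 2.07-fold), and the siderophore transporter genes ENB1 and ARN1 were called at no stage. The silent mating cassette genes HMRA1, HMRA2 and HMLALPHA2 were called at no stage. HMRA2 and HMLALPHA2 are repeated over their whole length, in part at the mating type locus itself, so their levels are not those of the silent copies alone. HMRA1 counts as unrepeated against a reference genome that carries alpha genes (MATALPHA2) at that locus. The mating type of the strains is not given in the sources used here, so the HMRA1 level cannot be placed at the silent copy either. IMD2, coding for IMP dehydrogenase, was at 198 to 891 FPKM (median 511) in hda1Δ and 220 to 944 FPKM (median 673) in wild type.

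Calls of lower levels in hda1Δ were fewer than calls of higher levels, and 0 members were called lower at 6 or more stages. PGU1, the endopolygalacturonase gene, had the lowest mean log2 ratio (−0.77) and was named after its values were seen. It was at 0.598 to 1.27 FPKM (median 0.829) in hda1Δ and 1.31 to 3.66 FPKM (median 2.05) in wild type. Its hda1Δ mean was under 1 FPKM, as for no other member, so it entered through wild type and its direction was set by the rule. With that limit, PGU1 was the 1 member with every hda1Δ library below every wild-type library (0.102% of all tested ORFs). Its ratio passed the limit in raffinose (0.390, 0.278 to 0.565) and at 15 min of galactose (0.391, 0.285 to 0.577).

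By the naming rule the lowest were EFM1, YIR042C, CHA1, PGA3, FZF1 and MIX23. EFM1, a lysine methyltransferase gene, was at 7.44 to 40.2 FPKM (median 27.8) in hda1Δ and 14.8 to 47.2 FPKM (median 34.1) in wild type, and lower in both second-pulse stages (0.517 and 0.533). YIR042C was lower at the same stages (0.552 and 0.487). CHA1, the catabolic serine deaminase gene, was lower at 30 min of glucose (0.516), and PGA3 at 120 min of galactose (0.479), where 9.79% of all tested ORFs were lower. FZF1, a regulator of sulfite export, and MIX23 passed the limit at no stage, with mean log2 ratios of −0.35 and −0.29.

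How the members responded to the change of sugar was compared within each genotype at 2-fold. Between raffinose and 120 min of galactose, 26 members rose and 19 fell in hda1Δ (all tested ORFs, 7.45% and 15.3%), and 17 rose and 4 fell in wild type (4.11% and 1.75%). From there to 30 min of glucose, 44 rose and 29 fell in hda1Δ (28.6% and 5.7%), and 28 rose and 20 fell in wild type (10.1% and 4.03%). Between raffinose and 120 min of glucose, 4 rose and 12 fell in hda1Δ (1.39% and 1.63%), and 4 rose and 13 fell in wild type (1.6% and 1.97%). From 120 min of glucose to 30 min of the second pulse, 70 rose and 25 fell in hda1Δ (16.8% and 21.6%), and 83 rose and 19 fell in wild type (20.4% and 19.4%). The median log2 change of the members in this last shift was 0.43 in hda1Δ and 0.51 in wild type, whereas that of all tested ORFs was −0.00392 in hda1Δ and 0.11 in wild type.

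Several of the members with the largest shifts in wild type are genes of sugar and lactate use. JEN1, the lactate and pyruvate permease gene that glucose represses, reached 669 FPKM in hda1Δ and 315 FPKM in wild type at 120 min of galactose, and was at 20.5 FPKM in hda1Δ and 10.6 FPKM in wild type at 30 min of glucose. It was higher in hda1Δ at 5 stages, up to 2.12-fold (2.06 to 2.18), and at 1.27-fold and 1.09-fold in the second pulse. HXK1, the hexokinase gene of growth without glucose, stood at 0.849 times the wild-type level before galactose, and was higher at 120 min of galactose (1.83-fold) and of glucose (2.09-fold). Its change between raffinose and 120 min of galactose was 3.32-fold in hda1Δ and 1.54-fold in wild type.

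HXK2, the hexokinase gene of growth on glucose, was at 484 FPKM in hda1Δ and 928 FPKM in wild type at 120 min of galactose (0.522-fold) and was called at no other stage. MSC1 was higher at the 3 stages of the first pulse (2.07-fold, 2.12-fold and 2.34-fold) and called at no other stage, and its change between raffinose and 120 min of galactose was 11.0-fold in hda1Δ and 4.97-fold in wild type. REE1, which has a part in the control of enolase, was higher at 120 min of glucose, with 141 FPKM in hda1Δ and 55.1 FPKM in wild type, and at 15 min of the second pulse (1.71-fold).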

How the data were processed

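The authors mapped directional mRNA-seq reads with HISAT2 2.0.4 and estimated levels with StringTie 1.3.0 on the Ensembl R64-1-1 annotation (release 86), and deposited 1 table per library with coverage, FPKM and TPM for each gene. The deposited FPKM values were used as they stand. Aligned bases were taken as coverage times length, and the bases of a read pair were counted as 1 fragment for the counting intervals. Whether strand was used in counting is not given in the sources used here, and 56 members overlap another gene. Ratios are of FPKM + 1, with calls at 1.7-fold (shifts at 2-fold), and log2 values are on that scale, which understates the change of low genes. Chromosome sequence, telomere regions and repeated windows came from the RefSeq R64 genome, in which 249 members were matched and 247 had the same coordinates. The largest gene end lay 0.222 to 3.53 kb inside the chromosome end. The members and lists were chosen with earlier results of these data known. Text names HDA1, the 10 highest and 6 lowest unrepeated members of at least 5 FPKM by mean log2 ratio, 3 highest and 2 lowest per phase, 2 risers and 2 fallers per wild-type shift, 2 highest and 2 lowest per list, the 4 most abundant repeated members, and the longest run. Not every gene so chosen is described, and the lists were counted in full. The list of biotin genes had no member. With 1 library per genotype and stage no test across replicates was possible. Calls and intervals were tested on simulated data with counting error alone. Those data held no spread between cultures and no reads shared between copies, so they say nothing about either. Python 3.11.15, NumPy 2.4.6, pandas 2.3.3 and SciPy 1.17.1 were used.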

Additional observations from a re-analysis of the deposited data

Results flagged for a closer look

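The 128 chromosome-end ORFs under 1 FPKM are outside the member counts. Some of them entered sums over copies, and all entered the setting with no level minimum. Of the 128, 1 had every hda1Δ library above every wild-type library, which held for 0.714% of all tested ORFs. It was YAR062W on the right end of chromosome I, with 65 fragments in the 8 hda1Δ libraries (3.60 to 12.1 each) and 6 in the 8 wild-type libraries (0 to 2.02 each). All of its read-length windows occur elsewhere in the genome. Its sum with YHR213W and FLO5, given above, was higher at 0 stages. Of the 128, 25 were listed at 0 in all 16 libraries.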

How the results depend on the processing

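No paired analysis was possible because no stage has replicate libraries to pair; the genotypes are matched by stage in every ratio. With 5 FPKM added in place of 1, the mean share of members higher was 12.0% (24.5% as reported), lasting members were 7.27% (17.1%), the average stage median 0.15 (0.23), the mean share shifting 12.5% (19.0%) and the share of list members lasting 11.0% (26.4%). Without repeated members, lasting members were 8.43%, the average stage median 0.15, the share higher at 5 to 10 kb 24.4% (37.2%), runs 3 (11) and list members lasting 8.33%, and the medians in the second pulse turned to −0.024 at 15 min and −0.016 at 30 min. With no level minimum, the average stage median was 0.12 and the share higher at 5 to 10 kb 23.1%. Asking for all 8 stages gave 10.5% lasting, and shifts at 3-fold gave 9.27%. Leaving out each stage in turn, with 6 of the 7 others required, gave 13.5 to 14.9% lasting. With a smaller added value of 0.1 FPKM, 54 members were lasting, 47 of them as reported, and with TPM 47, the same members. Centring on the median of all tested ORFs gave 49 (46 shared), and 2-fold in place of 1.7-fold gave 34 (all shared). Scaling to the ORF sum gave 48 (47 shared). This last, the sums over copies, the distance bins with a wild-type minimum and the count without 2 stages were chosen after seeing the data. Of 682 alternative values, 527 stayed within their limit, 153 moved and 2 changed sign.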
